A study of Mus musculus with 12 samples.

Results

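Thrombin receptors and coagulation factors were followed across 4 populations of mouse bone marrow progenitors through 10 genes: the receptor genes F2r, F2rl1, F2rl2 and F2rl3, the coagulation factor genes F3, F5, F7, F10 and F13a1, and the inhibitor gene Tfpi. The members were all probe sets annotated with one of these symbols alone, 17 of the 45037 probe sets, and they covered 9 of the 10 genes. F2rl1 is named only. The genes had been selected on differences already seen on these same 12 arrays, F2r and F10 among them, so their levels and differences are given as a description. Where calls by a test are counted among them, they are set beside the share of all probe sets called and support nothing.

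All mice were female C57BL/6 aged 4 to 6 weeks, and every population was sorted as lineage-negative, CD117+ and Sca-1-. Megakaryocyte-erythrocyte progenitors (MEP) further lacked CD34, CD16/32 and CD27, and granulocyte-monocyte progenitors (GMP) carried all of them. Common myeloid progenitors (CMP) carried CD34 and lacked CD16/32, and were divided by CD27 into a CD27+ and a CD27- fraction. Each population had 3 Affymetrix arrays, called biological replicates in the labels, with RNA of 80000 cells per population. Whether the replicates came from separate mice is not stated, so errors measure only the spread between these arrays. The SE of a difference pools the spread within all 4 populations. It is therefore the same in every comparison of a probe set.

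Thrombin is the last protease of the coagulation cascade. Tissue factor (F3) binds factor VII (F7), the complex activates factor X (F10), and activated factor X with its cofactor factor V (F5) makes thrombin, which forms fibrin that factor XIII (F13a1) then cross-links. Thrombin also signals to cells by cutting protease-activated receptors (PARs), G protein-coupled receptors whose new amino terminus acts as a tethered ligand. F2r encodes PAR1, F2rl1 PAR2, F2rl2 PAR3 and F2rl3 PAR4, and mouse platelets respond to thrombin through PAR4 with PAR3 as its cofactor.

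Values are log2 signals centred on the median array of each probe set. A value of 1 is therefore a doubling against that probe set's own median, levels of different probe sets cannot be set against each other, and a probe set that stays near 0 on all arrays may be even in all populations or absent from all. In sorted bulk samples, fewer cells with a transcript and less transcript per cell cannot be told apart. Array medians ran from -0.03 to 0.05. Of the sort marker genes, Cd34 had mean signals of 4.10 ± 0.10 (SD, n = 3) for CD27+ CMP and 3.03 ± 0.15 for GMP, but -3.22 ± 0.61 for CD27- CMP and -4.91 ± 1.71 for MEP, although both CMP fractions were sorted as CD34+. Cd27 followed its gate, with means of -3.05 for MEP, 4.10 for CD27+ CMP, -2.75 for CD27- CMP and 2.68 for GMP. Fcgr3 means were -1.64 for MEP, 2.20 for CD27+ CMP, -2.51 for CD27- CMP and 7.16 for GMP. Those of Fcgr2b were -3.79, 3.38, -3.30 and 4.78 in the same order. The CMP fractions were both sorted as lacking the Fc receptors of these genes, yet CD27+ CMP read well above CD27- CMP. Whether this bears on patterns shared by CD27+ CMP and GMP was not tested. Kit means ran from -0.33 to 0.35.

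The windows around the transcription start are shown for 4 members whose signals set the populations apart, F2r toward MEP and CD27- CMP, F2rl3 and F13a1 toward CD27+ CMP and GMP, and F10 toward GMP. Each holds 250 bases before and 50 bases after a RefSeq start on GRCm38.p6, printed 5′ to 3′ on the strand of the gene. Capitals mark matches, on either strand, to the letters of binding motifs of blood cell factors. For GATA factors the letters AGATAA were searched, as were, for the same factors, the letters TGATAA. For ETS factors such as PU.1 they were GAGGAA, for C/EBP factors TTGCNNAA, for Runx factors TGTGGT and for KLF factors CCNCNCCC. Adjoining or overlapping matches share 1 run of capitals. F13a1 has 2 windows in the table. They lie at chr13:95618417-95618716 on the minus strand (F2r), chr8:72761409-72761708 on the plus strand (F2rl3), chr8:13037058-13037357 on the plus strand (F10), and chr13:37050195-37050494 and chr13:37049164-37049463 on the minus strand (F13a1).
F2r: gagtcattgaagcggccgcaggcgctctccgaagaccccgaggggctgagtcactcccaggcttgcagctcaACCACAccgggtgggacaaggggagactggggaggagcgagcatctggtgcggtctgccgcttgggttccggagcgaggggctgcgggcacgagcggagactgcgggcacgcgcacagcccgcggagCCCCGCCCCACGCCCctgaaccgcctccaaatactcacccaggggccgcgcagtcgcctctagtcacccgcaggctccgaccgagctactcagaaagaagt
F2rl3: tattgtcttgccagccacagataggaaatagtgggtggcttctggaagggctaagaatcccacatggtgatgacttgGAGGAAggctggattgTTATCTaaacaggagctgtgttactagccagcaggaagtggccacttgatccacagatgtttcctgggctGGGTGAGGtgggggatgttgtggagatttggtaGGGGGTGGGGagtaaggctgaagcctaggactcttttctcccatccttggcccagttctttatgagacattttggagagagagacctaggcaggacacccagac
F10: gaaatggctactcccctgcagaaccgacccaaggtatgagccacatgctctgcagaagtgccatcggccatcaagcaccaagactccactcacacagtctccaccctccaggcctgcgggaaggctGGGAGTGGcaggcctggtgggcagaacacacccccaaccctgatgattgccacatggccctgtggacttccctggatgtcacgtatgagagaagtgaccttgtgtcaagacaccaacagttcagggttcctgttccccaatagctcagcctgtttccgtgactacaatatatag
F13a1, outer start: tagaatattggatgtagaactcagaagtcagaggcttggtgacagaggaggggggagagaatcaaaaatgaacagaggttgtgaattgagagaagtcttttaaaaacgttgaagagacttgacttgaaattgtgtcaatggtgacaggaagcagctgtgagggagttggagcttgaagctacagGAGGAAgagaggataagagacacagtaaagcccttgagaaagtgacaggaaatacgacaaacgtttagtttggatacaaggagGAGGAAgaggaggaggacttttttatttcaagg
F13a1, inner start: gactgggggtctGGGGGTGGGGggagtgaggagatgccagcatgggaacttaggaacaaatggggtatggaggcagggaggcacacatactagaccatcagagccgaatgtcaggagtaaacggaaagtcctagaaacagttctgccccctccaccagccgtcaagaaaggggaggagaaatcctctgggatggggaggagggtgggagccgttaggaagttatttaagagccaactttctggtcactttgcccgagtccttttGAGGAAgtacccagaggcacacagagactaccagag

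Windows were found for 9 of the 10 genes. The F2r window held neither GATA motif, and held the Runx letters once, with their first base 178 bases before the start, and 2 overlapping KLF matches that begin 51 and 44 bases before it. The F2rl3 window held AGATAA once on the opposite strand, 157 bases before the start, beside GAGGAA at 173 bases before it. It also held KLF matches that begin 87, 54 and 52 bases before the start. Both F13a1 windows held GAGGAA, shortly before and after the outer start and after the inner start. The inner F13a1 window also held overlapping KLF matches, 238 and 236 bases before its start, and the F10 window held a single KLF match. Such matches are common. AGATAA stood in 11.2% of the 32817 windows of this length, TGATAA in 9.06%, GAGGAA in 28.3%, TTGCNNAA in 10.8%, TGTGGT in 16.8% and CCNCNCCC in 49.5%. F10 is the next protein-coding gene after F7 on chromosome 8. F2rl1 and F2r are neighbours on chromosome 13, and 1 protein-coding gene, Iqgap2, lies between F2r and F2rl2.

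Among the receptors, F2r, which encodes PAR1, ran from its highest signal in CD27- CMP to its lowest in GMP. Its probe set 1437308_s_at read 1.55, 1.92 and 1.75 in CD27- CMP, 1.45, 0.99 and 0.67 in MEP, -0.97, -0.67 and -0.95 in CD27+ CMP, and -5.33, -4.17 and -4.39 in GMP. No 2 populations overlapped, but the step from MEP to CD27- CMP was small, with only 0.09 between their nearest arrays. The population means (± SD, n = 3) were 1.74 ± 0.19 for CD27- CMP, 1.04 ± 0.39 for MEP, -0.86 ± 0.17 for CD27+ CMP and -4.63 ± 0.61 for GMP. CD27+ CMP thus stood between the populations that read high and GMP. Its F2r signal was lower than that of CD27- CMP by a log2 difference of -2.60 (SE 0.30), a 6.08-fold ratio, and higher than that of GMP by 3.77 (SE 0.30), a 13.6-fold ratio. GMP lay 50.8-fold below MEP (log2 difference -5.67, SE 0.30) and 82.7-fold below CD27- CMP.

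The second F2r probe set, 1450852_s_at, gave the same order. It read 1.62, 1.96 and 1.59 in CD27- CMP, 1.53, 1.14 and 0.76 in MEP, -0.82, -0.78 and -0.76 in CD27+ CMP, and -5.18, -3.66 and -4.51 in GMP. Its differences were -2.51 (SE 0.34) between the CMP fractions and -5.59 (SE 0.34) between GMP and MEP, close to those of the first. The suffix _s_at marks probe sets whose probes match several transcripts. Both probe sets were read on the same arrays, so the 2 are not independent readings of the gene.

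Where F2r read below its median, in CD27+ CMP and GMP, F2rl3, which encodes the platelet thrombin receptor PAR4, read above its own. Its only probe set, 1421288_at, read 0.95, 2.26 and 1.88 in CD27+ CMP, 0.26, 0.83 and 1.33 in GMP, -0.44, -0.26 and -0.56 in CD27- CMP, and -0.31, -1.59 and -0.64 in MEP. CD27+ CMP and GMP lay above both other populations on every array. Within each of these pairs the arrays overlapped, so neither the order of CD27+ CMP and GMP nor that of CD27- CMP and MEP is settled. CD27+ CMP exceeded CD27- CMP by 2.12 log2 (SE 0.42, 4.34-fold) and MEP by 2.54 (SE 0.42, 5.82-fold), and GMP exceeded MEP by 1.65 (SE 0.42, 3.14-fold). The spread within CD27+ CMP (SD 0.67) and MEP (SD 0.66) was wide. The difference between GMP and MEP was not called with the replicate number as a block.

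F2rl2, which encodes PAR3, was nearly flat. Its 2 probe sets stayed between -0.07 and 0.21 apart from 1 array, CD27- CMP replicate 1, at 0.58 on 1421407_at. The largest difference between populations on either probe set was 0.21 log2 in size, and all populations overlapped on both. The signals give no level for PAR3 in any population.

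**Figure D1:**
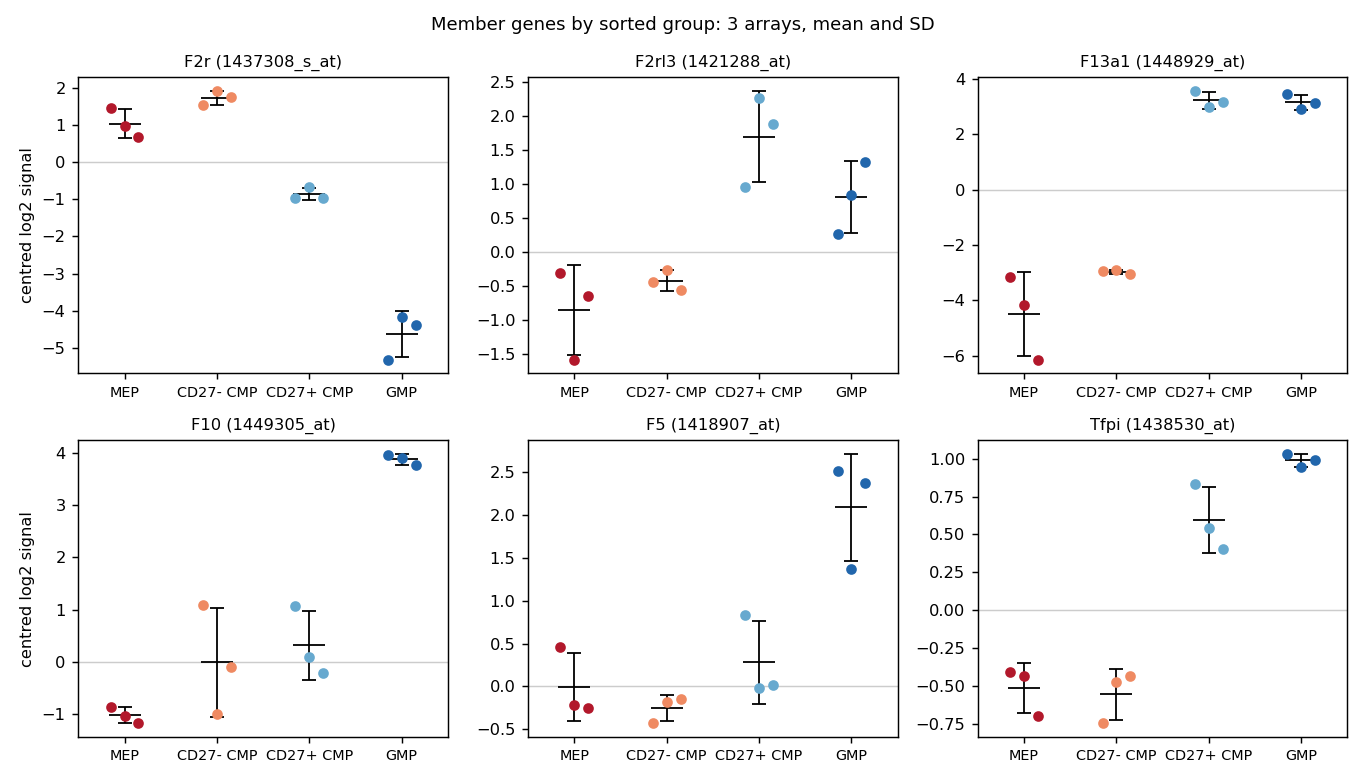
Centred log2 signal (vertical axis) of the probe set with the widest range of population means, for 6 member genes, in the 4 sorted populations (horizontal axis); coloured points are the 3 arrays of a population, and the black bar with whiskers is their mean ± SD. F2r reads highest in MEP and CD27- CMP and lowest, at a mean of -4.63, in GMP, F13a1 splits CD27+ CMP and GMP from the others, and F10 and F5 stand out in GMP; vertical scales differ between panels.

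Of the factors that start coagulation, neither F3 nor F7 differed by much between any populations. F3 encodes tissue factor, and its probe set stayed between -0.06 and 0.13 on the 12 arrays. F7 encodes factor VII, and its probe set stayed between -0.03 and 0.31, with its 2 highest values, 0.25 and 0.31, in GMP, where the third array read 0.00. Both ranges were under 0.5 log2, which 23009 of the 45037 probe sets also had.

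F10, the neighbour of F7, encodes factor X, the protease that makes thrombin, and stood out in GMP. Probe set 1449305_at read 3.96, 3.90 and 3.76 in GMP, against 1.06, 0.10 and -0.21 in CD27+ CMP, 1.08, -1.0 and -0.10 in CD27- CMP, and -0.86, -1.04 and -1.16 in MEP. The GMP arrays were well above all others. CD27- CMP overlapped both CD27+ CMP and MEP, whereas the CD27+ CMP arrays all lay above the MEP arrays. GMP exceeded MEP by 4.89 log2 (SE 0.48, 29.7-fold) and CD27+ CMP by a difference of the other sign, -3.55 for CD27+ CMP minus GMP (SE 0.48, 11.7-fold). Between the CMP fractions the difference was 0.32 (SE 0.48).

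The other F10 probe sets put the signal in GMP too. Probe set 1418992_at read 3.15, 3.49 and 2.39 in GMP and between -0.13 and 0.08 on the other 9 arrays. Probe set 1418993_s_at read 2.19, 2.87 and 1.51 in GMP and between -0.03 and 0.13 elsewhere. Outside GMP 1449305_at varied more, from -1.16 to 1.08, so the 3 agreed on GMP and not on the order of the remaining populations. Their GMP minus MEP differences were 3.00 (SE 0.22) and 2.19 (SE 0.27), less than the 4.89 of the first.

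F5, which encodes the cofactor of factor X, was also highest in GMP, with less uniform readings. Probe set 1418907_at read 2.52, 1.38 and 2.38 in GMP, 0.83, -0.02 and 0.02 in CD27+ CMP, 0.46, -0.22 and -0.26 in MEP, and -0.43, -0.19 and -0.15 in CD27- CMP. The GMP arrays lay above all others, and the remaining populations ran close together, with CD27+ CMP above CD27- CMP by only 0.13 between nearest arrays and both overlapping MEP. GMP exceeded MEP by 2.10 log2 (SE 0.35, 4.28-fold). The second probe set, 1449269_at, read 1.68, 0.54 and -0.03 in GMP, and its lowest GMP array lay among those of the other populations. Its difference of 0.79 (SE 0.36) between GMP and MEP was about as wide as the spread within GMP (SD 0.87).

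F13a1 encodes the catalytic A subunit of factor XIII, the transglutaminase that cross-links fibrin, made in platelets and in monocytes and macrophages. It had the largest range of all members, 9.74 log2, and divided the populations into a high and a low pair. Its probe set 1448929_at read 3.58, 2.99 and 3.16 in CD27+ CMP and 3.44, 2.91 and 3.12 in GMP, against -2.93, -2.91 and -3.04 in CD27- CMP and -3.15, -4.18 and -6.16 in MEP. CD27+ CMP and GMP overlapped and differed by 0.09 (SE 0.61). The CMP fractions differed by 6.20 log2 (SE 0.61, 73.8-fold), with 5.90 between their nearest arrays, and GMP exceeded MEP by 7.66 (SE 0.61). The spread in MEP was wide (SD 1.53), against SDs of 0.07 in CD27- CMP, 0.31 in CD27+ CMP and 0.27 in GMP. MEP replicate 1 lay only 0.11 below the lowest CD27- CMP array, and replicate 3 read lowest. The SE of 0.61 pools the spread of all 4 populations and is not that of the 2 populations compared. GCRMA draws weak signals toward background, so the depth of such low values, and the folds made from them, are uncertain.

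Tfpi encodes tissue factor pathway inhibitor, which blocks factor VII with tissue factor and activated factor X. Its probe set that varied most evenly with the populations, 1438530_at, read 1.03, 0.94 and 0.99 in GMP, 0.83, 0.54 and 0.40 in CD27+ CMP, -0.40, -0.44 and -0.70 in MEP, and -0.75, -0.47 and -0.44 in CD27- CMP. GMP was highest, CD27+ CMP next, and MEP and CD27- CMP overlapped. CD27+ CMP exceeded CD27- CMP by 1.14 log2 (SE 0.12, 2.21-fold) and GMP exceeded MEP by 1.5 (SE 0.12, 2.83-fold). The other 3 Tfpi probe sets also read highest in GMP, by 0.78, 0.69 and 1.09 log2 over MEP, and each put all GMP arrays above all MEP arrays, by as little as 0.17 between nearest arrays on 1451791_at. They set the CMP fractions apart by 0.45, 0.39 and 0.22, less than 1438530_at did.

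**Figure D2:**
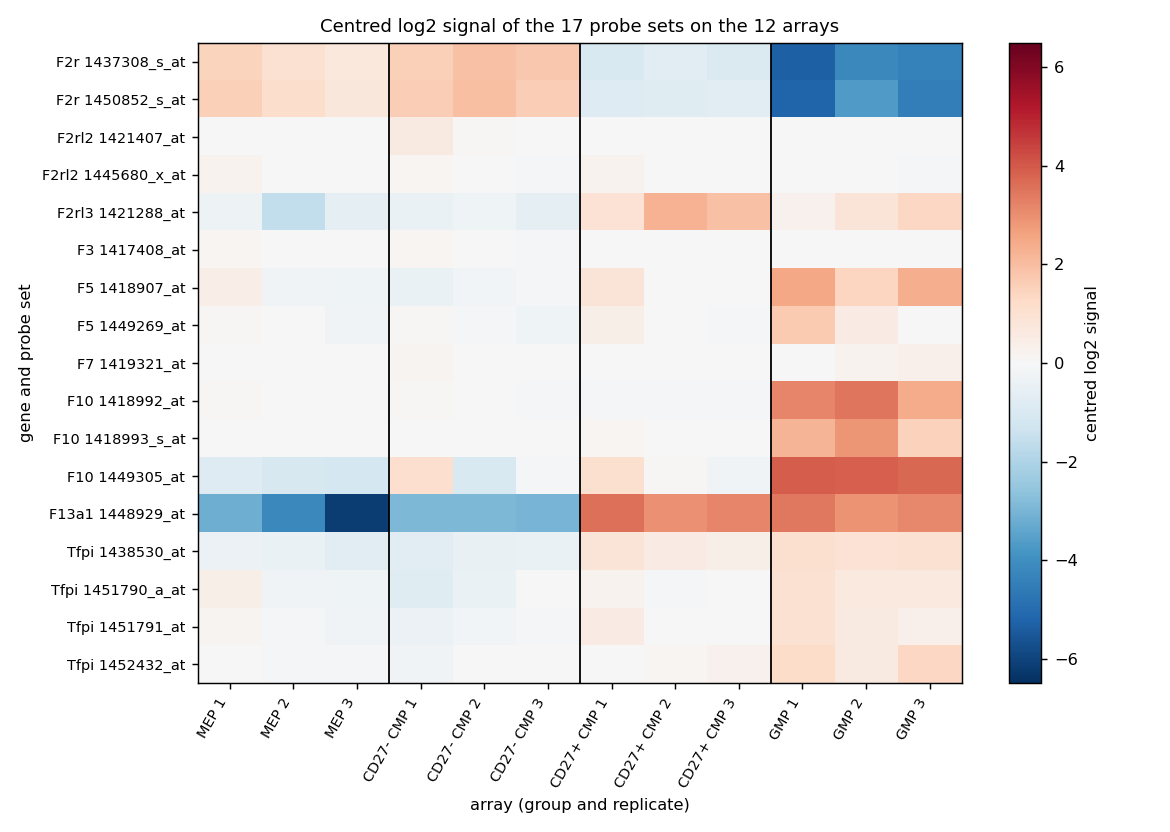
Centred log2 signal (colour, blue below and red above the median array) of the 17 probe sets (rows) on the 12 arrays (columns, black lines between populations). The 2 F2r rows are blue in GMP where the 3 F10 rows are red, F13a1 turns from blue to red between CD27- and CD27+ CMP, and the rows of F2rl2, F3 and F7 are close to white throughout.

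Set against all probe sets, calls were counted with limma at an adjusted p under 0.05. In GMP against MEP 9 of the 17 member probe sets were called higher, where 7.54% of all probe sets were, and 2 were called lower, where 7.27% were. With the replicate number as a block 8 were called higher and 2 lower, beside 3412 and 3446 of all 45037 probe sets. In CD27+ against CD27- CMP 3 were called higher (7.65% of all) and 2 lower (6.49%). Without CD27- CMP replicate 3 the probe sets called lower there numbered 4851 in place of 2925, and the member calls were the same in number. The members called in that comparison were F2rl3, F13a1 and 1 Tfpi probe set on the higher side and both F2r probe sets on the lower side. All 3 F10 probe sets and 1 of F5 were called in GMP against MEP and not between the CMP fractions, and whether the 2 differences differ was not tested. Because the genes were picked with such differences known, these counts describe them and support nothing further.

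In CD27+ CMP against GMP 2 member probe sets were called higher (1.47% of all) and 5 lower (1.57%). The probe sets called lower there fell in number from 706 to 451 without CD27+ CMP replicate 3, and those called higher from 662 to 408 without GMP replicate 2. The higher ones were those of F2r, and the lower ones were the 3 of F10, 1 of F5 and 1 of Tfpi. In CD27- CMP against MEP 0 of 17 were called by limma, 2 had an unadjusted p under 0.05, and 0.0111% and 0.0333% of all probe sets were called higher and lower. That background rose from 5 higher and 15 lower probe sets to 71 and 90 without CD27- CMP replicate 3, and to 12 to 33 higher and 17 to 73 lower without MEP replicate 1 or 3 or CD27- CMP replicate 1 or 2. In CD27+ CMP against MEP 3 were called higher (7.67% of all) and 2 lower (8.34%), and in CD27- CMP against GMP 2 were called higher (6.3%) and 9 lower (7.9%). These comparisons share arrays, so their counts are not independent. The median size of a member difference was 1.5 log2 in GMP against MEP and 0.32 between the CMP fractions, beside 0.08 over all probe sets in both.

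Some of these calls were lost when a single array was left out, in part with the difference unchanged or larger. The F2rl3 difference between GMP and MEP lost its call without MEP replicate 2, MEP replicate 3, GMP replicate 2 or GMP replicate 3, with values of 1.28, 1.75, 1.64 and 1.39 log2. The F5 difference between CD27+ CMP and GMP lost its call without CD27+ CMP replicate 2 or 3 or GMP replicate 1 or 3, with values from -1.68 to -1.60. Tfpi 1451791_at lost its call in GMP against MEP without any array other than CD27+ CMP replicate 1 and GMP replicate 3, at differences from 0.52 to 0.80. In CD27- CMP against GMP it lost its call without CD27- CMP replicate 1 or 2 or GMP replicate 1 or 2, at differences from -0.86 to -0.67. Tfpi 1452432_at lost its call in CD27+ CMP against GMP without MEP replicate 1 or 2, any CD27+ CMP array, or GMP replicate 1 or 3, at differences from -0.99 to -0.76. The calls of F2r, F13a1, F10 and Tfpi 1438530_at held whichever array was left out.

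**Figure D3:**
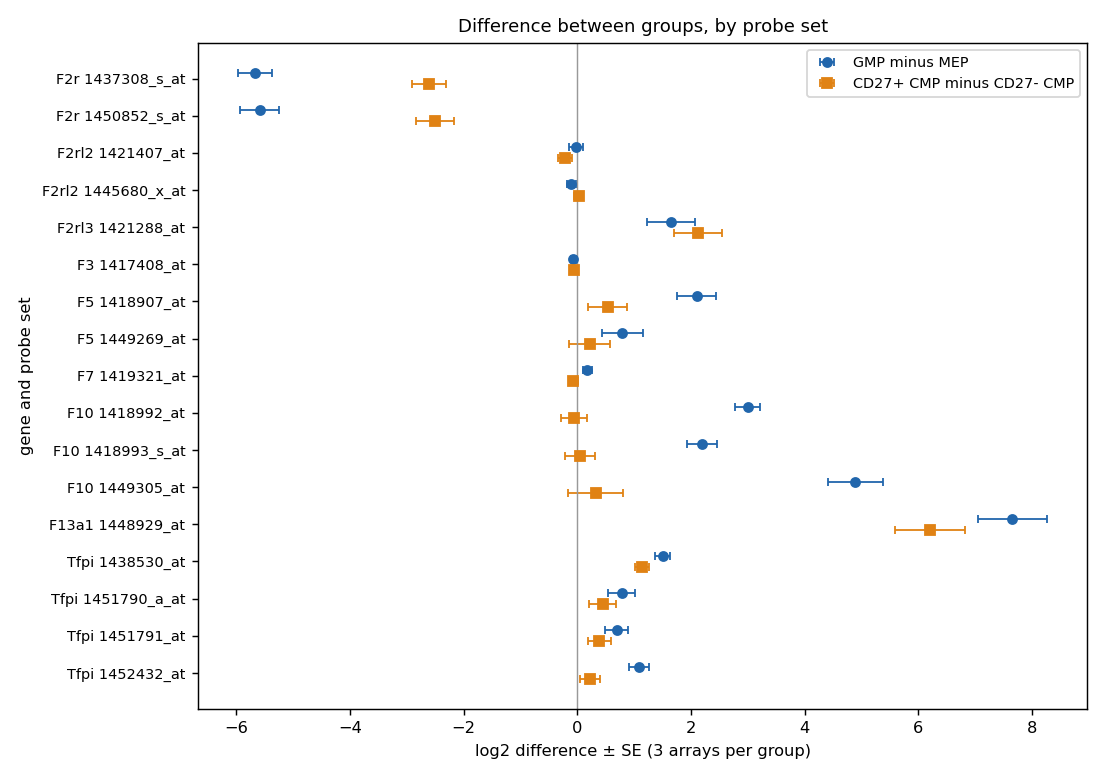
Log2 difference ± SE (horizontal axis) of each member probe set (rows) for GMP minus MEP (blue circles) and CD27+ CMP minus CD27- CMP (orange squares), 3 arrays per population. F2r lies left of 0 in both, F13a1, F2rl3 and Tfpi 1438530_at lie right of 0 in both, and the F10 probe sets lie right of 0 for GMP minus MEP, at 2.19 to 4.89, but near 0 between the CMP fractions.

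Markers of lineages moved with several members, and their part in the results was not tested. Averaged over 10 measured erythroid marker genes, the arrays read 2.5 to 2.56 in MEP, 2.26 to 2.48 in CD27- CMP, -3.44 to -2.55 in CD27+ CMP and -3.69 to -2.18 in GMP, so erythroid signal was high where F2r was high but did not separate CD27+ CMP from GMP as F2r did. Averaged over 10 measured megakaryocyte and platelet markers, they read -0.13 to 0.88 in MEP, 0.10 to 1.70 in CD27- CMP, -0.42 to 0.04 in CD27+ CMP and -1.23 to -0.20 in GMP. The list was mixed. On the CD27+ side of the CMP fractions 2 were called lower (9.31% of all genes) and 1 higher (11.3%), and 7 were not called. The higher one was Itgb3 (1.76 log2, SE 0.47), and Ppbp had its highest mean in GMP (1.02 ± 0.77). The platelet chemokine gene Pf4 and the platelet receptor gene Gp1bb both read 2.99 on CD27- CMP replicate 1, where the F2r probe sets read 1.55 and 1.62, against 1.75 to 1.92 and 1.59 to 1.96 on the other CD27- CMP arrays. The 10 measured granulocyte-monocyte progenitor markers averaged 3.32 to 3.75 in GMP, 2.77 to 3.31 in CD27+ CMP, -3.26 to -2.65 in CD27- CMP and -4.33 to -2.87 in MEP, and thus divided the populations where F13a1 did. Of 10 mature macrophage markers, 6 varied by less than 0.5 log2 over the 12 arrays, and the list averaged 0.48 to 0.61 in GMP, 0.56 to 0.65 in CD27+ CMP, -0.40 to -0.17 in CD27- CMP and -0.32 to -0.28 in MEP. Adgre1, the gene of the macrophage antigen F4/80, read highest in GMP (mean 2.52, against 0.08 or less elsewhere), Cd163 in CD27+ CMP (2.17, against -0.10 in GMP), and Cd68 in both (3.68 in CD27+ CMP and 3.16 in GMP). The 7 mast cell and basophil markers averaged 2.29 to 2.34 in GMP, 1.38 to 1.66 in CD27+ CMP, -1.58 to -1.42 in CD27- CMP and -1.81 to -1.49 in MEP, and 4 of them, Mcpt8, Cpa3, Hdc and Ms4a2, were called higher both in GMP against MEP and in CD27+ against CD27- CMP, where F13a1 and F2rl3 read higher too. Of the 10 stromal and endothelial markers, 5 varied by less than 0.5 log2, Cdh5 and Kdr among them. The list averaged 0.30 to 0.33 in GMP, 0.71 to 0.80 in CD27+ CMP, -0.41 to -0.26 in CD27- CMP and -0.44 to -0.14 in MEP. Pecam1 and Pdgfrb were called higher in both comparisons and Emcn only between the CMP fractions, while Col1a2 had its highest mean in MEP (0.95). All 5 mature B cell and all 6 mature T and NK cell markers varied by less than 0.5 log2.

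The genes with the signal pattern most like that of each member were named by their Pearson correlation over the 12 arrays, among the 3344 named genes whose range reached 2 log2. The 12 arrays form 4 populations, so r mostly reflects the 4 means and is given without a test. For F2r they were the urea transporter gene Slc14a1 (r = 0.98), the protein kinase C gene Prkch (0.97) and Smap2 (0.97). Slc14a1 had means of 1.44 in MEP, 1.33 in CD27- CMP, -1.35 in CD27+ CMP and -4.16 in GMP, with CD27+ CMP between the extremes as for F2r. For F2rl3 they were Dennd3 (0.96), the interferon-induced gene Ifitm1 (0.95) and the glycogen phosphorylase gene Pygb (0.95). For F10 they were the sialic acid receptor gene Siglecg (0.96), the steroid enzyme gene Hsd11b1 (0.95) and the matrilin gene Matn2 (0.95), of which Hsd11b1 read 7.17 in GMP and 1.07 in CD27+ CMP. For F5 they were the phospholipase D gene Pld1 (0.97), the neuregulin gene Nrg2 (0.97) and the protein kinase C gene Prkcb (0.95). For F13a1 they were Cd93 (0.997), the myeloperoxidase gene Mpo (0.996) and Ms4a6b (0.995). The other members had ranges under 2 log2 and were not matched.

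The rest of the pathway was read from 6 lists of 122 genes, 111 of them measured, each by its most variable probe set. Adjusted p-values in these paragraphs are from limma over all 45037 probe sets. Over all 18193 genes, 11% were called higher and 10.1% lower in GMP against MEP, and 11.3% higher and 9.31% lower in CD27+ against CD27- CMP.

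Of 30 genes that carry or regulate signals from thrombin receptors, 9 were higher and 5 lower in GMP than in MEP. The CMP fractions gave 9 and 5 as well. The medians were 0.23 and 0.36 against -0.04 and -0.03 over all genes. The largest were Rasgrp2, an activator of the integrin regulator Rap1 (6.04, SE 0.41, adjusted p = 6.8e-06 in GMP against MEP), and Gna14, a G protein subunit of the Gq class (-5.52, SE 0.33, adjusted p = 3e-06). Arhgef12, an exchange factor driven by G12 and G13 proteins, was lower in GMP (-4.61, SE 0.33, adjusted p = 1e-05) and in CD27+ CMP (-4.27, adjusted p = 2.1e-05). Plcb2, a phospholipase C of leukocytes, was higher in CD27+ CMP (3.63, SE 0.19, adjusted p = 1.4e-06) and in GMP (3.95, adjusted p = 6.6e-07). Prkcb was higher in GMP (4.25, SE 0.29, adjusted p = 7.2e-06), but read 0.32 between the CMP fractions (adjusted p = 0.58). The other 3 probe sets of Arhgef12 read from -0.33 to -0.14 in GMP against MEP and were not called, and 1 of the 2 others of Prkcb read -0.03, so those genes rest on part of their probe sets.

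Of 18 genes of the remaining coagulation factors and of the proteins that process them, 2 were higher and 2 lower in GMP than in MEP, and between the CMP fractions 0 were higher and 2 lower on the CD27+ side. Vwf, the carrier of factor VIII and a platelet adhesion protein, was lower in GMP (-2.26, SE 0.51, adjusted p = 0.015) and in CD27+ CMP (-1.82, SE 0.51, adjusted p = 0.043). The second of these calls was lost without any array other than CD27- CMP replicate 3 and GMP replicate 2, and the difference was -1.21 (adjusted p = 0.07) without CD27- CMP replicate 1, on which several platelet genes read high. The first was lost without MEP replicate 1 (-1.99, adjusted p = 0.059) or GMP replicate 2 (-1.95, adjusted p = 0.058). Vkorc1l1, a vitamin K reductase, was lower in both as well (-1.08 and -1.55). Mcfd2, which helps to export factors V and VIII from the endoplasmic reticulum, was higher in GMP (1.58, SE 0.23, adjusted p = 0.001). Ggcx, the carboxylase of vitamin K-dependent factors, was higher in GMP by 0.85 (adjusted p = 0.035), while its second probe set read -0.03. With the replicate number as a block it was not called (adjusted p = 0.062). That call was lost without any array other than CD27- CMP replicate 3 and GMP replicate 1 (0.58 to 0.89).

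Of 19 measured anticoagulant and fibrinolytic genes, 5 were higher in GMP than in MEP (11% of all genes). In CD27+ against CD27- CMP 5 were higher (11.3%). In both comparisons 0 were lower, beside 10.1% and 9.31% of all genes, and the medians were -0.02 and -0.01. Thbd encodes thrombomodulin, which turns thrombin toward protein C, and was higher in GMP (4.09, SE 0.18, adjusted p = 5e-07) and in CD27+ CMP (3.62, SE 0.18, adjusted p = 1.4e-06). Procr, the endothelial protein C receptor, was higher in CD27+ CMP by 3.39 (SE 0.35, adjusted p = 0.00013) and in GMP by 1.59 (adjusted p = 0.013). The annexin genes Anxa2 and Anxa5 and the urokinase receptor gene Plaur were the others named by the rule, at 4.46, 2.67 and 2.43 in GMP against MEP. Between the CMP fractions Plaur read 0.98 (adjusted p = 0.017), a call lost without CD27- CMP replicate 2 (0.90, adjusted p = 0.063). Of the Anxa2 probe sets only the most variable was called.

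Among 16 measured genes of other proteases known to cut PARs, 5 were higher and 2 lower in GMP than in MEP, and 5 higher and 1 lower in CD27+ than in CD27- CMP. The neutrophil serine protease genes Elane (7.29, SE 0.60, adjusted p = 2.5e-05), Ctsg (6.89, adjusted p = 6.7e-06) and Prtn3 (6.51, adjusted p = 1.6e-06) and the cathepsin S gene Ctss (5.57, adjusted p = 1.1e-06) were higher in GMP, where F2r read lowest. In CD27+ CMP the same 4 genes were higher by 5.30, 5.58, 5.22 and 6.78. The membrane protease gene Mmp14 was lower in CD27+ CMP (-6.13, SE 0.43, adjusted p = 1.1e-05) and in GMP (-5.54, adjusted p = 1.9e-05).

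Of 7 other transglutaminase genes measured, 2 were lower in both GMP and CD27+ CMP, where F13a1 read higher. Tgm1 was higher in GMP than in MEP (2.51, SE 0.62, adjusted p = 0.024), a call lost without any single MEP array or GMP replicate 2 (2.10 to 2.55, lowest without GMP replicate 2). Tgm2, the tissue transglutaminase, was lower in GMP (-6.94, SE 0.55, adjusted p = 2e-05) and in CD27+ CMP (-4.96, adjusted p = 0.00021), though 2 of its 6 probe sets were below 1 log2 in size. Epb42, an inactive relative that forms part of the red cell membrane skeleton, was lower too (-3.86 and -2.62), but its second probe set read -0.11 and -0.06.

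Platelet receptor and granule genes divided. Of 21 measured, 4 were higher and 1 lower in GMP than in MEP, and 5 higher and 2 lower in CD27+ than in CD27- CMP. Gp5, a platelet glycoprotein that thrombin cuts, was lower in GMP (-5.11, SE 0.51, adjusted p = 9.1e-05) and in CD27+ CMP (-4.33, adjusted p = 0.00031), the direction in which F2r differed. Nbeal2, needed for platelet alpha granules, was higher in both (3.66 and 3.66), as F2rl3 was, but its second probe set read 0.07 and 0.06. Plek, a platelet and leukocyte signalling protein, and Selp, the granule adhesion protein P-selectin, exceeded their CD27- CMP signals in the CD27+ fraction, by 3.56 (adjusted p = 0.00019) and 3.16 (adjusted p = 0.0016). In GMP against MEP Plek was called at 1.54 (adjusted p = 0.026), a call lost without MEP replicate 2 or 3 or GMP replicate 1 or 3 (1.24 to 1.61), and Selp read 1.13 (adjusted p = 0.18). The thromboxane synthase gene Tbxas1 (2.18, adjusted p = 0.0094) and the ATP receptor gene P2rx1 (1.90, adjusted p = 0.00011) were higher in GMP than in MEP. P2rx1 was also higher in CD27+ than in CD27- CMP (1.20, adjusted p = 0.0023). Its second probe set read 0.63 and 0.51 in these comparisons and was called in neither.

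**Figure D4:**
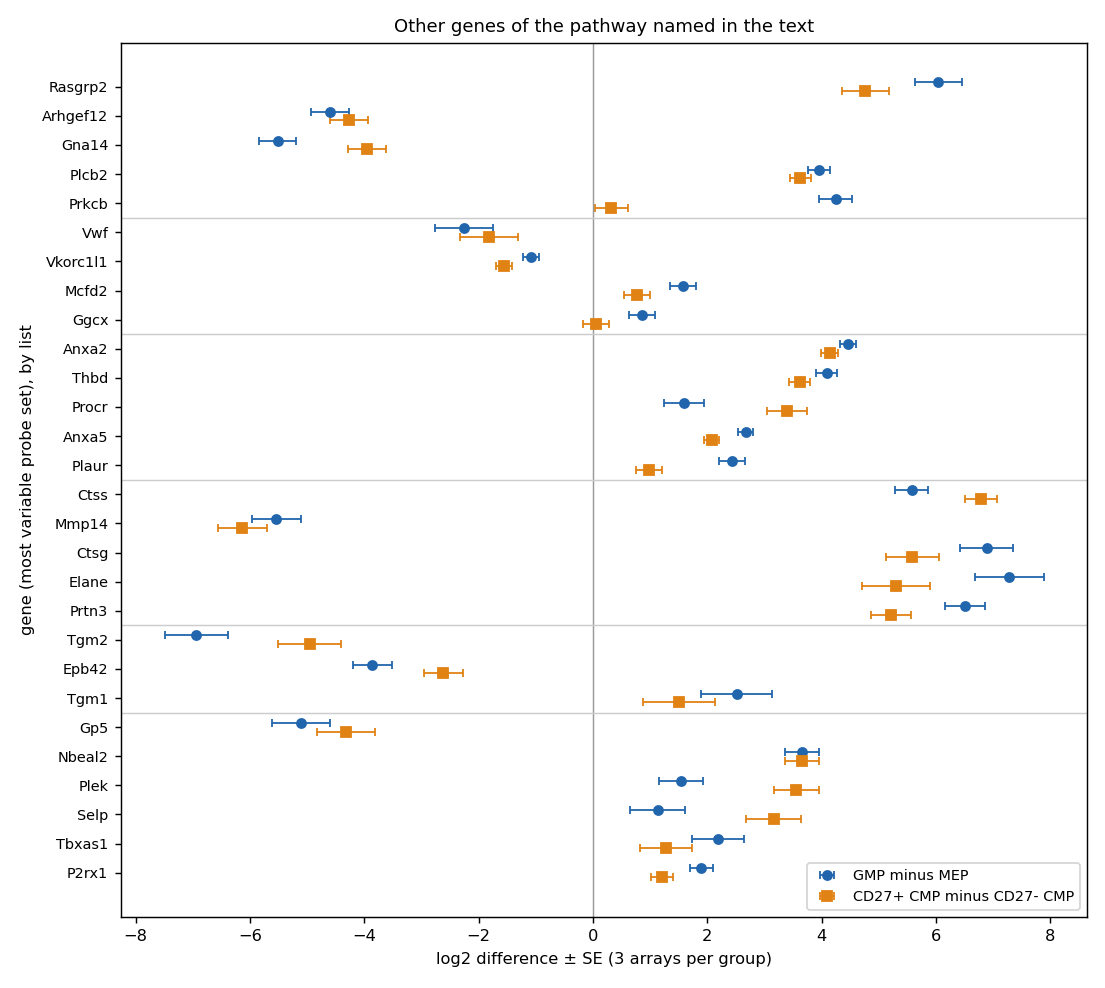
Log2 difference ± SE (horizontal axis) of the 28 pathway genes named in the text (rows, grouped by list between grey lines: receptor signalling, other coagulation factors, anticoagulant and fibrinolytic genes, other proteases, transglutaminases, platelet genes), for GMP minus MEP (blue circles) and CD27+ CMP minus CD27- CMP (orange squares), 3 arrays per population. The neutrophil proteases lie at 5.22 to 7.29 and Tgm2, Gna14, Gp5, Arhgef12 and Mmp14 lie at -6.94 to -3.95.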

How the data were processed

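Gene expression was measured on 12 Affymetrix arrays, 3 for each of 4 sorted populations, with groups and replicate numbers taken from the sample titles. The authors deposited log2 values, for which the submitters' processing notes name GCRMA; its version is not given in the sources used here. Log2 was read from the range and sign of the values, and the deposited values were found to be centred per probe set (all medians within 5e-07 of 0), so no filter on level was possible. Probe sets were named from GEO's platform annotation: 34945 had 1 symbol, 932 several and 9160 none. limma 3.58.1 (R 4.3.3) was fitted to all 45037 probe sets and 12 arrays with 1 mean per population, default empirical Bayes settings, two-sided tests and Benjamini-Hochberg adjustment, and was checked on simulated data. Precision is limited by the number of arrays. The median SE of a difference was 0.09 log2 over all probe sets, many of them flat, and the 90th percentile was 0.33. Among members the SE reached 0.61, for F13a1. Members and lists were chosen with earlier results of these data known. Named genes were all members, the 4 largest called differences per list in either of 2 comparisons, and the 3 genes most correlated with each member of range 2 log2 or more. Alternatives were quantile normalization, centring of arrays, array weights (estimated gene by gene, since the joint estimate did not converge), a range filter of 0.5 log2, 2-group fits, a replicate block, a threshold of 1 log2, the mean of a gene's probe sets and each array left out. Promoter windows came from RefSeq. The labels do not say that replicate numbers pair samples. Deviations of same-numbered arrays from their population means correlated above 0.1 in all 3 pairs of MEP with GMP (0.27 to 0.58). The same held for CD27+ CMP with GMP (0.23 to 0.57), but not for all pairs of the other comparisons. Those 2 comparisons may thus be paired. Unless the block is named, the SEs, calls and adjusted p-values given ignore pairing, and the replicate block was run only as an alternative.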

Additional observations from a re-analysis of the deposited data

How the results depend on the processing

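Every member probe set that was called kept the sign of its difference under all alternatives and without any single array. This was largely fixed in advance. The fits of 2 populations, the range filter, the replicate block and the loss of an array from another population leave a difference unchanged. Where the arrays of 2 populations do not overlap, leaving 1 out cannot turn the sign either. The numbers called among the 17 member probe sets without 1 array ran from 5 to 5 in CD27+ against CD27- CMP, 9 to 11 in GMP against MEP, 5 to 7 in CD27+ CMP against GMP, 0 to 0 in CD27- CMP against MEP, 5 to 6 in CD27+ CMP against MEP and 10 to 12 in CD27- CMP against GMP. The numbers of pathway genes ran from 30 to 36 in CD27+ against CD27- CMP, where 36 were called, and from 31 to 38 in GMP against MEP, where 38 were called. Of the pathway genes named, Vwf, Ggcx, Tgm1, Plek and Plaur lost calls without single arrays, with the values given beside them, and Mcfd2 and Tbxas1 gained a call between the CMP fractions without CD27- CMP replicate 1 (0.91 and 1.88). The Vwf call between the CMP fractions was also lost with quantile normalization (-2.20). Fitting only the 2 populations compared, with 6 arrays in place of 12, left 4 of 7 member calls in CD27+ CMP against GMP. F5 1418907_at, F10 1418993_s_at and Tfpi 1452432_at lost theirs. In GMP against MEP such a fit left 9 of 11, without F2rl3 and Tfpi 1451791_at. In CD27- CMP against GMP it left 10 of 11, without Tfpi 1451791_at. The other member counts stayed the same. Among named pathway genes, Vwf and Plaur lost calls between the CMP fractions and Ggcx in GMP against MEP. The replicate block gave 10 member calls in GMP against MEP, where F2rl3 lost its call, and 5, 7, 0, 5 and 11 in the other comparisons, the same numbers as without it; among named pathway genes Ggcx lost its call in GMP against MEP under the block (adjusted p = 0.062) and Mcfd2 gained one between the CMP fractions (adjusted p = 0.0019). Same-numbered MEP and GMP arrays, and CD27+ CMP and GMP arrays, deviated together, and those of CD27- CMP did not do so in all pairs. Over all populations the correlations of same-numbered arrays ran from -0.33 to 0.58, above 0.1 in 9 of 18 pairs, and 9 of 12 arrays correlated best with one of their own number. Among all probe sets the balance of calls moved with array weights, to 5362 higher and 12288 lower in GMP against MEP and 4554 higher and 9183 lower in CD27+ against CD27- CMP, while the member calls there were 13 and 5. They gave 5761 higher and 21954 lower in CD27+ CMP against MEP and 7623 higher and 4805 lower in CD27- CMP against GMP, with 7 and 12 member calls, and 1608 higher and 2212 lower in CD27- CMP against MEP, in place of 5 and 15, with 0 member calls. Quantile normalization turned the balance in CD27+ CMP against MEP, from 3453 higher and 3757 lower to 4046 and 3272, with 5 member calls in both. Flat probe sets, those of F3, F7 and 1 of F2rl2 among them, set the limit of what these centred values can show.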
